A study of Homo sapiens with 72 samples.

Results

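H3K4me3 and H3K27me3 were compared in untreated REH cells, an acute lymphocytic leukemia line of the B-precursor type. All 3 libraries of each mark that carry the label of no treatment were taken, so 6 of the 54 samples of the series with a peak file entered. Each library was made by Cut&Tag (Cleavage Under Targets and Tagmentation), in which an antibody brings a transposase to a histone mark so that the DNA beside the mark is cut and amplified. The cells grew in medium with fetal bovine serum, no agent was added, and no gene was altered by the study. The sample labels name the repressive antibody H3K27me3, which is the name used here, while the text describing the series names H3K27me2. Nothing in the labels says that the 3 replicates were separate cultures, so the spread between them may be technical. A peak is a stretch that the caller SEACR marked as enriched in a single library. Because each mark was read in its own library from many cells, a position with peaks of both marks cannot be told apart from a mixture of cells or alleles that carry either mark.

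H3K4me3 is placed at the starts of genes by the SET1 and MLL enzymes, which contain a subunit that binds unmethylated CG dinucleotides, and it is the usual mark of an active or poised promoter. H3K27me3 is placed by EZH2 in Polycomb repressive complex 2 and is known for covering silent developmental genes, often as wide domains. The 2 marks oppose each other on the same histone tail, but in stem cells many developmental promoters are known to hold both, a state called bivalent.

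The upstream bases of 6 gene starts show what kinds of sequence lay under each mark. They are the 250 bases before the RefSeq start (build GRCh38.p14, 5′ to 3′ on the strand of the gene), with every CG dinucleotide in capitals. The 6 were picked after their values were seen, as windows that were called over all 250 bases in the 3 libraries of the mark or marks and in none of the other. PAX5, the master transcription factor of B cells, stood for H3K4me3 alone, at chr9:37034269-37034518 (minus strand). TBX1 and WNT6, a T-box factor and a WNT ligand of the embryo, and OR6B3, an odorant receptor, stood for H3K27me3 alone, at chr22:19756453-19756702 (plus strand), chr2:218859555-218859804 (plus strand) and chr2:240053522-240053771 (minus strand). SLIT2, an axon guidance ligand, and HES7, a clock gene of the segmenting embryo, stood for both marks, at chr4:20251655-20251904 (plus strand) and chr17:8124107-8124356 (minus strand).
PAX5: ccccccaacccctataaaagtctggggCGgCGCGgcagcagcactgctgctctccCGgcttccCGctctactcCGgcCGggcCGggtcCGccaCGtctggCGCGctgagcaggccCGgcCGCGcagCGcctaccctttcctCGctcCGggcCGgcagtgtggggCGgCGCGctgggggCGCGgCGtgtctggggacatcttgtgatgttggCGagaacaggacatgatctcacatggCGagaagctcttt
TBX1: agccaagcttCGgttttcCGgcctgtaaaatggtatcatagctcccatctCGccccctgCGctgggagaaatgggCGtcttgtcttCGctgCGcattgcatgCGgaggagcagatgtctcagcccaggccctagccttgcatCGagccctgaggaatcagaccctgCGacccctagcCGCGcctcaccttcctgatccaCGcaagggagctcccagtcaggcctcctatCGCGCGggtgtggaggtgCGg
WNT6: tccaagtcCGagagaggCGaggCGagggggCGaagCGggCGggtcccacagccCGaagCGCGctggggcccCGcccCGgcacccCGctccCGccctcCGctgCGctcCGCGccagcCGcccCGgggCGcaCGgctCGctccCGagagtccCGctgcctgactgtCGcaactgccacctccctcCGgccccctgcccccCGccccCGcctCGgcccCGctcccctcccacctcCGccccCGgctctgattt
OR6B3: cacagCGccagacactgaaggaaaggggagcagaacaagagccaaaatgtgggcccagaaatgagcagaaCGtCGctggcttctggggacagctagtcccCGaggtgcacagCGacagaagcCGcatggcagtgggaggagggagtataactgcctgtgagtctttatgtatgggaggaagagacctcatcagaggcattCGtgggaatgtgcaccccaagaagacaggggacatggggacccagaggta
SLIT2: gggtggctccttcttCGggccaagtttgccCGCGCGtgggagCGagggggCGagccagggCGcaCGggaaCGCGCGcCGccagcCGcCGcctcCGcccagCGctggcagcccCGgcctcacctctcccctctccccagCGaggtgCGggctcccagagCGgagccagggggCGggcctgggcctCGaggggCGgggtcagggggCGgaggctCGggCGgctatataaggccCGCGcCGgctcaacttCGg
HES7: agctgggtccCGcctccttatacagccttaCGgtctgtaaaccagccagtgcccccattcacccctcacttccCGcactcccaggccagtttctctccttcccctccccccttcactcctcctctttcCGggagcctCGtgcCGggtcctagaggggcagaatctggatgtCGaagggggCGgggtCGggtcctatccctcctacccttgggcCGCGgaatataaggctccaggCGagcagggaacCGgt

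PAX5 held 27 CG in its 250 bases, TBX1 17, WNT6 32, OR6B3 7, SLIT2 30 and HES7 13. Over the same window of 35116 RefSeq promoters the median was 11 CG, with quartiles of 3 and 23, and 93.9% held at least 1. The letters searched were CG, which read the same on both strands. OR6B3 alone of the 6 lay below that median.

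The H3K4me3 libraries held 11809, 7509 and 9230 peaks in replicates 1, 2 and 3, and the H3K27me3 libraries 48483, 18841 and 17621. Together the peaks covered 30.6, 20.7 and 17.6 Mb for H3K4me3 and 230.8, 106.1 and 45.3 Mb for H3K27me3. Mapped reads, read from the step between coverage values, were 27.9, 18.8 and 10.2 M for H3K4me3 and 39.0, 32.5 and 15.2 M for H3K27me3. Replicate 3 was the shallowest library of both marks and replicate 1 the deepest, so called length followed depth within each mark. The mean coverage inside H3K4me3 peaks was 468, 594 and 669 RPKM (coverage scaled to bin length and mapped reads), and inside H3K27me3 peaks 37.6, 54.3 and 110 RPKM. H3K27me3 was thus called over more bases at a lower height.

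The libraries resembled their own mark far more than the other. Of the bases called in either library of a pair, 57.2% to 66.8% were shared in the 3 H3K4me3 pairs and 19.5% to 43.5% in the 3 H3K27me3 pairs. In the 9 pairs of unlike marks the share was 0.268% to 1.71%. The shared percentage was therefore lower between H3K27me3 replicates than between H3K4me3 replicates.

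Gene classes first check the label of the cells. A protein-coding gene was given a mark if at least 2 of the 3 libraries had a peak within 1 kb of any of its annotated starts (GENCODE release 44). Of 14 genes of the B lineage, 12 carried H3K4me3 alone, against 47.2% of all protein-coding genes, among them PAX5, EBF1, CD79A, CD79B, RAG1, RAG2 and IGLL1, and none carried H3K27me3. None of the 9 T cell genes, 7 myeloid genes, 4 epithelial genes and 4 fibroblast genes carried H3K4me3 alone, and of the 4 erythroid genes only EPOR did. The marked lineage genes were thus those of a precursor B cell, as the cell line is labelled.

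PAX5 had the highest H3K4me3 signal of all 9460 genes with H3K4me3 alone. Its peaks at any annotated start together held 19.0, 13.2 and 16.1 times the total signal of the median peak of their library (16.1 ± 2.89, SD, n = 3). The signal of every gene named below was summed in the same way. EBF1, which with PAX5 commits cells to the B lineage, held 9.02, 5.99 and 7.34 times, and IGLL1, a part of the surrogate light chain, 6.95, 4.86 and 5.53 times. No H3K27me3 peak lay at these 3 starts in any library. CD22, a surface protein of B cells that is a target of CAR-T cells, carried a peak in each H3K4me3 library at 0.816, 0.554 and 0.578 times the median peak. VPREB1, the partner of IGLL1, had no peak of either mark.

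Most called bases of H3K4me3 lay at gene starts, and most of H3K27me3 did not. The genome was split into bases within 1 kb of any annotated start (211.2 Mb), other bases of genes (1598 Mb) and intergenic bases (1128 Mb). Of the H3K4me3 length, 79.6%, 82.7% and 90.3% lay at starts (84.2% ± 5.54, SD, n = 3). Of the H3K27me3 length, 8.47%, 11.0% and 15.5% did (11.7% ± 3.55). All H3K4me3 libraries were far above all H3K27me3 libraries. The difference of -72.5 percentage points, H3K27me3 minus H3K4me3, had an exact two-sided permutation p of 0.1, the smallest that 3 against 3 libraries can give, and an adjusted p of 0.12 over the 6 comparisons of this kind.

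Gene bodies and intergenic space showed the reverse order. H3K4me3 had 16.4%, 14.6% and 7.81% of its length in gene bodies and 4.08%, 2.67% and 1.85% in intergenic space. For H3K27me3 the shares were 51.9%, 51.4% and 49.4% in gene bodies and 39.6%, 37.6% and 35.1% in intergenic space. In both places the groups did not overlap (exact permutation p = 0.1 and adjusted p = 0.12 for each). Against the share of each place in the genome, H3K4me3 was 11.7 ± 0.771 times as frequent at starts (SD, n = 3), 0.238 ± 0.0831 times in gene bodies and 0.0747 ± 0.0293 times between genes. H3K27me3 lay above the genome's share at starts in every library, at 1.178, 1.535 and 2.153 times (1.62 ± 0.494). It lay near the genome's share elsewhere, at 0.936 ± 0.0245 times in bodies and 0.975 ± 0.0586 times between genes.

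**Figure D1:**
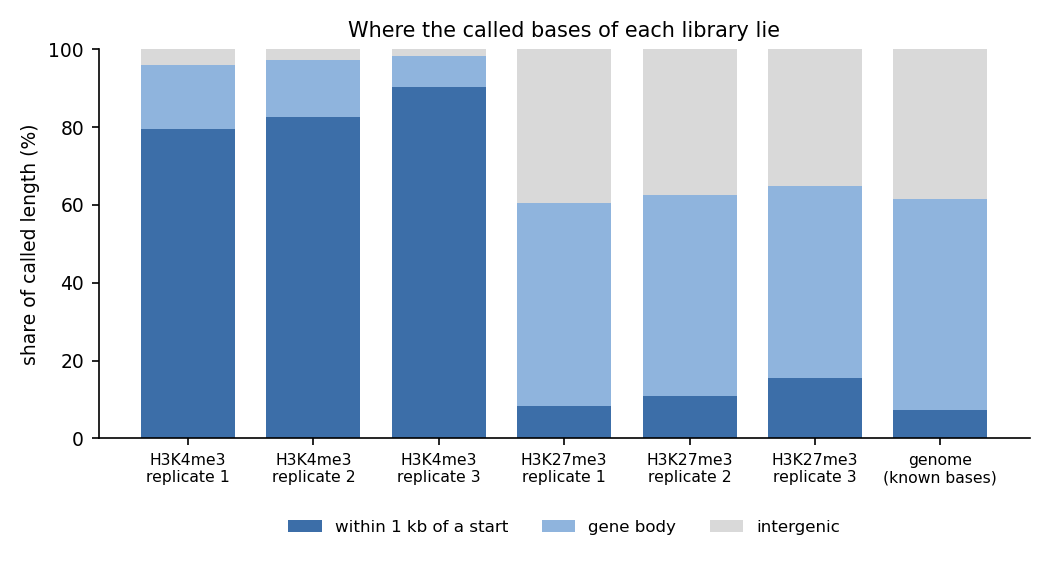
Share of called length (%, vertical axis) within 1 kb of a start, in gene bodies and in intergenic space, as a stacked bar for each of the 6 libraries and for the known bases of the genome. The H3K4me3 bars are mostly starts (79.6% to 90.3%). The H3K27me3 bars are closer to the genome bar, with more at starts (8.47% to 15.5% against 7.19%).

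Peaks of the 2 marks also differed in where single peaks sat. Of the H3K4me3 peaks, 94.6%, 98.7% and 97.8% touched a start window, and 339, 41 and 103 peaks lay in gene bodies only. Of the H3K27me3 peaks, 18.8%, 26.5% and 23.2% touched a start window. H3K27me3 peaks at starts were the widest of their libraries, with medians of 4500, 5030 and 2400 bp against 2760, 3590 and 1710 bp in gene bodies and 2700, 3560 and 1720 bp between genes. In every H3K27me3 library the median was thus higher for peaks that touched a start window than for the others. A wide peak touches a window more easily than a narrow one, so this order may follow from how peaks were classed. It was not tested.

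The median peak width of all peaks did not separate the marks. It was 2340, 2520 and 1750 bp for H3K4me3 and 2930, 3840 and 1830 bp for H3K27me3. The ranges overlapped, and the difference of 663 bp had an exact permutation p of 0.4. Replicate 3 gave the narrowest peaks of both marks. Without H3K27me3 replicate 3 the difference was 1182 bp, and with 7509 peaks of highest total signal in every library it was 4773 bp, and in both cases the groups did not overlap (exact permutation p = 0.1).

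The wide peaks separated the marks. Peaks of 5 kb or wider held 8.72%, 8.63% and 2.74% of the called length of H3K4me3 (6.70% ± 3.42, SD, n = 3) and 59.9%, 64.2% and 31.0% of that of H3K27me3 (51.7% ± 18.1). The groups did not overlap (exact permutation p = 0.1, adjusted p = 0.12). Peaks of 20 kb or wider numbered 1, 2 and 0 for H3K4me3 and 1174, 509 and 28 for H3K27me3. The widest peaks spanned 20940, 25830 and 16270 bp for H3K4me3 and 114100, 86590 and 49460 bp for H3K27me3.

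Wide domains were then read from bases called in at least 2 of the 3 libraries, with stretches under 5 kb apart joined. This left 8723 H3K4me3 domains with a median of 2290 bp and 12707 H3K27me3 domains with a median of 4320 bp. Domains of 20 kb or wider numbered 8 for H3K4me3 and 1411 for H3K27me3, and they held 1.03% and 48.1% of the joined length. Of the 1411, 855 (60.6%) touched a protein-coding gene, 365 (25.9%) held the 5′ end of such a gene, and 21 (1.49%) held a stretch of H3K4me3.

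The widest H3K4me3 domain spanned 40.3 kb at chr1:228608361-228648610 and covered the RNA5S genes, an array of near-identical copies of the 5S ribosomal RNA, where reads cannot be placed on a single copy. The domain of 40.1 kb at chr19:1236901-1277000 joined the starts of CBARP, ATP5F1D, MIDN, CIRBP and FAM174C, and that of 32.7 kb at chr1:149830381-149863030 held 6 histone genes. A domain of 25.9 kb at chr7:155357581-155383440 touched no protein-coding gene and held the non-coding genes BLACE and LINC03010. BLACE is named for its expression in B cell acute lymphoblastic leukemia. The wide H3K4me3 domains were thus mostly runs of neighbouring starts or repeated genes.

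The widest H3K27me3 domains were several times as wide. A domain of 371 kb at chr11:117429831-117800850 covered the adhesion gene DSCAML1 and FXYD2, with 341 kb called. A domain of 324 kb at chr17:79183191-79506900 lay in RBFOX3, a splicing factor of neurons, and a domain of 263 kb at chr16:970671-1233260 touched LMF1, SOX8, SSTR5, C1QTNF8, CACNA1H and the tryptases TPSG1 and TPSB2. CHST1, a sulfotransferase of carbohydrates, lay in a domain of 226 kb, and a domain of 193 kb touched no protein-coding gene. RBFOX3 also had the highest H3K27me3 signal of all genes with H3K27me3 alone, at 377, 122 and 89.1 times the median peak. This signal was summed over all whole peaks that touched any of its start windows, so genes with many starts or wide peaks can rank higher.

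Within genes, the longest called H3K27me3 by the mean of 3 libraries belonged to PTPRN2, a phosphatase-like protein of secretory granules, with 660, 482 and 271 kb. ASIC2, an acid-sensing channel, followed with 722, 422 and 134 kb, and the cadherin CDH4 with 550, 449 and 263 kb. SORCS2, a sorting receptor of neurons, had 473, 453 and 304 kb. In each of these genes the called length was longest in replicate 1 and shortest in replicate 3, the order of depth. CAMTA1, a calmodulin-binding factor, had 573, 432 and 223 kb and was the only one of the 5 longest to carry both marks at its starts. Its H3K27me3 at starts held 11.2, 0.532 and 0 times the median peak. The marks shared 3.68, 0 and 0 kb in the gene, so a shared stretch was seen in replicate 1 only.

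The longest called H3K4me3 within genes, by the same mean, was in BAHCC1, a chromatin reader, with 22.7, 19.7 and 15.6 kb. BCOR, a partner of BCL6 and of a Polycomb complex, had 23.3, 17.2 and 14.2 kb, and GSE1, a corepressor, 19.3, 14.9 and 14.7 kb. GSE1 also held 47.0, 18.9 and 2.58 kb of called H3K27me3, with no base shared in same-numbered pairs. CCDC200 and NBDY, at 26.6, 16.0 and 13.6 kb and 17.7, 15.8 and 15.9 kb, had their H3K4me3 more than 1 kb from any of their own starts and so counted as neither. These H3K4me3 lengths were far below those of the longest H3K27me3 genes.

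Starts of protein-coding genes fell into 4 states. Of 20033 genes, 9460 (47.2%) carried H3K4me3 only, 2209 (11%) H3K27me3 only, 440 (2.2%) both marks and 7924 (39.6%) neither. In single libraries 58.2%, 42.3% and 49.3% of the genes had an H3K4me3 peak at a start (49.9% ± 7.97, SD, n = 3), and 18.7%, 12.7% and 10.7% an H3K27me3 peak (14.0% ± 4.17). The groups did not overlap (exact permutation p = 0.1, adjusted p = 0.12). Genes with H3K27me3 carried H3K4me3 less often, at 16.6% of 2649 genes, than genes without it, at 54.4%. The 440 genes with both marks were 0.336 times the 1309 that the product of the shares gives. In same-numbered pairs of libraries the ratio was 0.486, 0.275 and 0.371, below 1 in each.

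Non-coding genes were marked less. Of 18866 lncRNA genes, 2829 (15%) carried H3K4me3 only, 1724 (9.14%) H3K27me3 only, 124 (0.657%) both and 14189 (75.2%) neither. Of 10146 processed pseudogenes, 50 carried H3K4me3 only, 369 (3.64%) H3K27me3 only and none both. H3K27me3 alone was therefore nearly as frequent at lncRNA genes as at protein-coding genes, while H3K4me3 alone was not.

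Measured in bases, the marks overlapped less than unrelated sets at starts in most pairs, and the ratio between genes depended on which peaks were taken. The shared length was divided by the product of the 2 covered shares within each place, so that 1 is the overlap of unrelated sets. At starts the ratio was 0.689, 0.386 and 0.858 in pairs 1, 2 and 3 (mean 0.645 ± 0.239, SD, n = 3), and over all 9 pairs of libraries it was below 1 in 8, with a range of 0.351 to 1.31. In gene bodies it was 0.589, 0.563 and 2.00 (1.05 ± 0.824), so replicate 3 stood on the other side of 1, and without replicate 3 of either mark the mean was 0.576. Over all 9 pairs 6 body ratios were below 1 (0.371 to 2.00). In intergenic space the ratio was 1.16, 1.26 and 3.16 (1.86 ± 1.13), and 2 of 9 pairs were below 1 (0.716 to 4.32). The intergenic mean turned to 0.545 with the 50% of peaks of highest total signal and to 0.978 with 7509 peaks of highest maximum in every library. These ratios are descriptions with no test.

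Little length was shared in all. The marks had 1.89, 0.450 and 0.505 Mb in common in pairs 1, 2 and 3, which was 6.18%, 2.17% and 2.88% of the H3K4me3 length and 0.818%, 0.424% and 1.11% of the H3K27me3 length. Over bases called in at least 2 of 3 libraries of each mark, 0.636 Mb was shared, of which 0.539 Mb lay at starts, 0.0688 Mb in gene bodies and 0.0280 Mb between genes. The intergenic ratio above 1 thus rested on few bases.

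Of the H3K4me3 peaks that touched a start, 891 (7.98%), 190 (2.56%) and 298 (3.3%) overlapped an H3K27me3 peak of the same number. Among those that did, the median overlap was 1860, 2220 and 1600 bp, and 813, 160 and 256 of them were covered over at least 50% of their width. Most overlaps thus took in the larger part of the H3K4me3 peak and were not edges that met. Most other H3K4me3 peaks were far from H3K27me3, with a median distance of 118, 176 and 202 kb from a start peak to the nearest H3K27me3 peak.

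The profile around the 5′ end of genes showed the same shapes by state. At genes with H3K4me3 only, H3K4me3 covered 84.7% ± 7.01 of the genes at the 5′ end (SD, n = 3 libraries), 32.9% ± 11.2 at 1 kb upstream and 70.7% ± 14.1 at 1 kb downstream, and 3.32% ± 0.897 at 5 kb downstream. H3K4me3 was therefore called more often downstream than upstream of the 5′ end. The other annotated starts of a gene lie downstream of that end, and their part in this was not tested. At genes with H3K27me3 only, H3K27me3 covered 65.9% ± 12.9 at the 5′ end and still 36.2% ± 15.1 at 5 kb and 29.2% ± 13.4 at 10 kb downstream. At genes with both marks, H3K27me3 fell from 63.6% ± 7.87 at the 5′ end to 12.7% ± 5.83 at 5 kb and 7.65% ± 2.88 at 10 kb. The height at the 5′ end was fixed by how the states were chosen, and the reach was not.

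**Figure D2:**
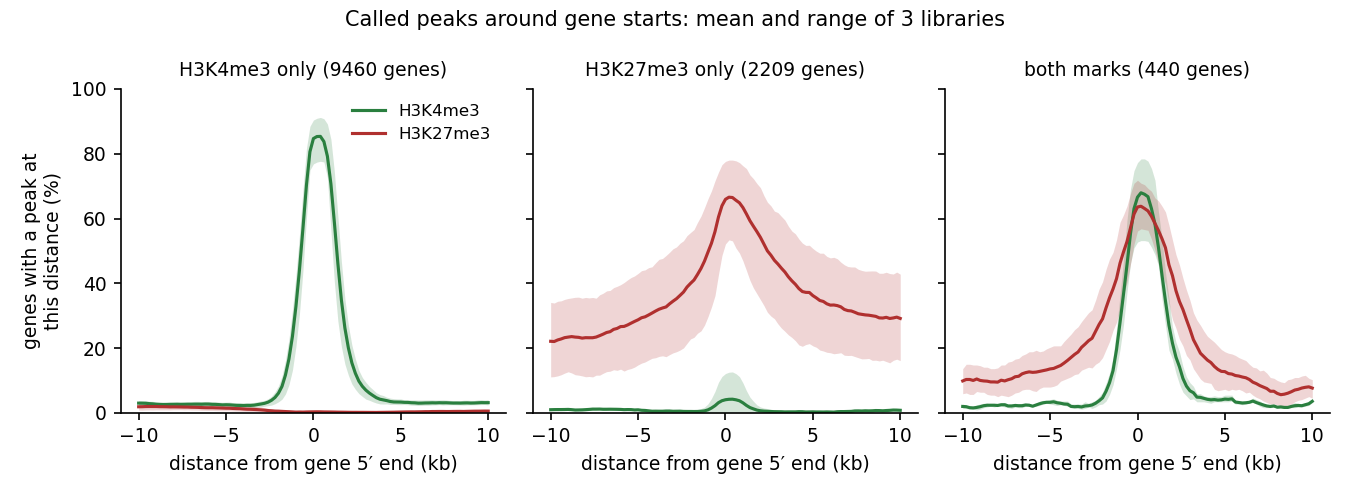
Share of the genes with a called peak (%, vertical axis) at each distance from the gene's 5′ end (kb, horizontal axis, negative upstream) for the 3 states, H3K4me3 in green and H3K27me3 in red. Lines are means and bands the range of 3 libraries. H3K27me3 reaches past 10 kb at genes with H3K27me3 only (29.2% at 10 kb downstream), and at genes with both marks it is at 7.65% there.

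Gene bodies followed the starts. Outside the start windows, bases called in at least 2 of 3 libraries covered on average 33.9% of the body with H3K27me3 at 1995 genes with H3K27me3 only, 7.92% at 425 genes with both marks, 1.53% at genes with neither and 0.188% at genes with H3K4me3 only. At least 50% of the body was under H3K27me3 in 584 (29.3%) of the first and 11 (2.59%) of the second. H3K4me3 covered 2.23% of the body at genes with H3K4me3 only. Genes with both marks thus had on average less of the body under H3K27me3 than genes with H3K27me3 only. Some H3K27me3 was still called in the body of 292 (68.7%) of the 425, against 1778 (89.1%) of the 1995.

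Genes with both marks also held less total signal at their starts, which is height summed over width. The signal of a gene was summed over all peaks that touched any of its start windows. Starts with both marks are here the starts of genes with both marks, of which 102 had the marks only at different starts. The median total H3K4me3 signal at starts with both marks, minus that at starts with H3K4me3 only, was -0.38, -0.23 and -0.50 on the log2 scale in replicates 1, 2 and 3 (mean -0.37 ± 0.14, SD, n = 3). The H3K4me3 widths had medians of 2655, 2695 and 1940 bp at starts with both marks and 2640, 2570 and 1800 bp at the others, and the median maximum was 1290, 1540 and 1228 RPKM against 1902, 2018 and 2034 RPKM. The median H3K27me3 signal at starts with both marks, minus that at starts with H3K27me3 only, was -0.93, -0.51 and -0.19 (mean -0.54 ± 0.37). The widest H3K27me3 peak at a start had a median of 4975, 4035 and 2620 bp with both marks and 8560, 6020 and 2985 bp with H3K27me3 only. Its median maximum was 175, 216 and 316 RPKM against 187, 200.2 and 329 RPKM, so H3K27me3 was narrower in all 3 libraries and its maximum was higher in replicate 2. All 3 libraries of each mark had less total signal at starts with both marks, and the exact two-sided sign-flip p was 0.25 for both differences, the smallest that 3 libraries allow.

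Of the 440 genes with both marks, 330 (75%) had bases called for both within a start window, 8 had both in the same window without such a base, and 102 (23.2%) had them at different starts. Genes with both marks had a median of 8 annotated starts, against 7 with H3K4me3 only, 4 with H3K27me3 only and 3 with neither. The longest shared stretches, over the mean of 3 pairs, were at SOCS2, an inhibitor of cytokine signalling, with 4.01, 4.69 and 3.6 kb. The actin-bundling FSCN1 shared 4.98, 4.47 and 2.68 kb, and SLIT2 4.06, 4.23 and 3.76 kb. WNT11, a WNT ligand, shared 3.96, 4.60 and 2.96 kb, and NR3C2, the mineralocorticoid receptor, 4.12, 4.15 and 3.01 kb. At WNT11 the shared stretch was all of the H3K4me3 called in the gene in each pair. Joined over libraries, the widest shared region, 8.36 kb at chr17:8117371-8125730, held the starts of HES7 and reached into ALOXE3.

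Starts differed in CG content by state. In the 1 kb around the 5′ end of the gene, the median count of CG was 73 (quartiles 55 and 94) at genes with H3K4me3 only, 45 (17 and 86) with H3K27me3 only, 85.5 (54 and 111) with both marks and 27 (11 and 59) with neither. The ratio of observed to expected CG was at least 0.6 at 83.6%, 45.1%, 76.4% and 35.3% of these genes in the same order. The CG content of genes with H3K27me3 only was thus widely spread, and genes with both marks resembled those with H3K4me3 only.

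Most housekeeping genes carried H3K4me3 alone, which 47.2% of all protein-coding genes did. Of 86 cytosolic ribosomal protein genes 74 did, of 78 mitochondrial ribosomal protein genes 71, of 39 proteasome subunits 36, of 37 subunits of respiratory complex I 34, and all 12 MCM and ORC genes, which license replication origins. None of these genes carried H3K27me3 alone. The proteasome subunit PSMB9 held 6.91, 5.00 and 6.44 times the median peak, and the complex I subunit NDUFV3 6.52, 4.67 and 6.44 times. RPL38 and MRPS2, named after their values were seen, were the ribosomal genes with both marks. All 17 enzymes and partners that write or erase the 2 marks carried H3K4me3 alone, among them EZH2, EED, SUZ12 and KDM6A, with KDM6B, an H3K27 demethylase, at 8.53, 6.09 and 7.72 times.

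Replication-dependent histone genes and zinc finger genes were next. The shares over all protein-coding genes were 47.2% with H3K4me3 alone, 2.2% with both marks and 39.6% with neither. Of 69 histone genes 49 carried H3K4me3 alone and 20 neither. Of 508 ZNF genes, mostly repressors that bind DNA, 324 (63.8%) carried H3K4me3 alone, 13 (2.56%) H3K27me3 alone and 4 both. H3K27me3 alone was below its share of 11% among all genes. Of the 7 CDK inhibitors, CDKN1A, CDKN1B, CDKN2C and CDKN2D carried H3K4me3 alone, CDKN1C both marks, and CDKN2A and CDKN2B neither, with no peak in any library.

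WNT and FGF ligands of development often held H3K27me3 alone, which 11% of all protein-coding genes did. Of all these genes 47.2% carried H3K4me3 alone, 2.2% both marks and 39.6% neither. Of 19 WNT genes 10 (52.6%) carried H3K27me3 alone, 2 (WNT3 and WNT11) both marks and none H3K4me3 alone. Of 22 FGF genes 9 (40.9%) carried H3K27me3 alone, 3 (FGF9, FGF11 and FGF18) both, and FGF6 H3K4me3 alone. WNT6 held 41.1, 22.4 and 8.99 times the median H3K27me3 peak over 15.4, 15.4 and 12.8 kb of called length, and FGF19, a hormone-like FGF, held 59.6, 32.4 and 43.2 times. WNT11, with both marks, held 40.6, 20.8 and 36.0 times the median H3K27me3 peak and 1.38, 0.978 and 0.806 times the median H3K4me3 peak. The BMP and GDF ligands were mixed, with 6 of 21 under H3K4me3 alone, 4 under H3K27me3 alone and 2 (BMP1 and BMP6) under both.

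Transcription factors of development were split. The shares over all protein-coding genes were 11% with H3K27me3 alone, 47.2% with H3K4me3 alone, 2.2% with both and 39.6% with neither. Of 39 HOX genes, which set position along the body axis, 13 (33.3%) carried H3K27me3 alone, 7 (17.9%) H3K4me3 alone, none both and 19 neither. The 4 clusters differed: HOXA had 6 of 11 genes under H3K4me3 alone and 1 under H3K27me3 alone, HOXB 0 and 5 of 10, HOXC 1 and 7 of 9, and all 9 HOXD genes were under neither. HOXB7, HOXB8 and HOXB9 lay under the same H3K27me3 peaks, at 46.0, 23.5 and 43.2 times the median peak. Of 77 genes of homeobox, paired box and T-box families, among them PAX, LHX, NKX, DLX, IRX, TBX and POU, 25 (32.5%) carried H3K27me3 alone, 10 H3K4me3 alone, 3 (LHX4, DLX1 and TBX2) both and 39 neither. TBX1 held 40.5, 22.2 and 41.0 times, and DLX2, a homeobox gene of forebrain neurons, 82.6, 42.0 and 17.7 times, with an H3K4me3 peak in replicate 1 only. Of 45 FOX genes only 3 (FOXC1, FOXD4 and FOXN1) carried H3K27me3 alone and 14 H3K4me3 alone, led by FOXO3 and FOXO1, which act downstream of growth factor signalling. The SOX and GATA genes stood at 6 under each mark of 25, with GATA1, GATA2 and GATA3 under H3K27me3 alone and SOX4, SOX11 and SOX12 under H3K4me3 alone.

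Genes of nerve and skin were seldom under H3K4me3. Among all protein-coding genes 47.2% carried H3K4me3 alone, 11% H3K27me3 alone, 2.2% both and 39.6% neither. Of 39 voltage-gated potassium channels 13 (33.3%) carried H3K27me3 alone, 1 H3K4me3 alone, 1 both and 24 neither. Of 45 glutamate and GABA receptors 15 (33.3%) carried H3K27me3 alone, 3 H3K4me3 alone, 1 both and 26 neither, with GRM4, a metabotropic glutamate receptor, at 95.1, 49.0 and 53.0 times the median peak. Of 149 keratins and keratin-associated proteins 42 (28.2%) carried H3K27me3 alone, and of 400 olfactory receptors 58 (14.5%), close to the 11% of all genes. No keratin or olfactory receptor gene had an H3K4me3 peak at a start in any library. Of the 53 clustered protocadherins, which label single neurons, 49 (92.5%) carried neither mark, 3 H3K27me3 alone and 1 H3K4me3 alone.

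Genes of other lineages were seldom under H3K4me3. Of the T cell genes, CD3D, CD3G and CD4 carried H3K27me3 alone, BCL11B both marks, and CD2, CD3E, CD5, CD8A and LCK neither. CD4 had 21.2, 15.1 and 7.77 kb of called H3K27me3, CD3D 3.62, 2.75 and 2.19 kb. BCL11B, which commits cells to the T lineage, held 1.60, 1.03 and 0.935 times the median H3K4me3 peak and 10.7, 4.26 and 4.35 times the median H3K27me3 peak. COL1A1 and COL1A2, the chains of type I collagen, carried H3K27me3 alone, and all 7 myeloid and 4 epithelial genes neither. Genes with neither mark were 5 of 9 in the T cell list and 2 of 4 in the fibroblast list. Of all protein-coding genes 39.6% carried neither mark, 11% H3K27me3 alone and 2.2% both. Lists this short cannot tell these counts of neither from that share.

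Chromosomes differed in both marks. Bases called in at least 2 of 3 libraries made up 0.347% (X) to 2.90% (19) of a chromosome for H3K4me3 and 0.406% (X) to 9.16% (22) for H3K27me3. Genes with H3K27me3 only ran from 5.59% on X to 15.9% on chromosome 20, and genes with both marks from 0.233% on X to 4.06% on chromosome 14.

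The states were then read in libraries that did not define them. H3K4me2, the neighbouring mark of active promoters and enhancers, was called in at least 2 of 3 untreated REH libraries at 96.2% of genes with H3K4me3 only, 99.5% with both, 25% with H3K27me3 only and 15.7% with neither. Genes with both marks thus stood with the genes with H3K4me3 only in H3K4me2. In REH cells treated with 1 nM bryostatin, a modulator of protein kinase C, overnight by the labels and for a full day by the study's supplement, H3K4me3 was called at 96.8% of genes with H3K4me3 only and 89.3% with both, and H3K27me3 at 95.9% of genes with H3K27me3 only and 92.0% with both. Of the 440 genes, 360 (81.8%) had both marks again, against 96.4% and 95.2% of the genes with a single mark that kept their state. The overlap ratio at starts in treated cells was 0.362, 0.594 and 0.451, against 0.689, 0.386 and 0.858 untreated (exact permutation p = 0.3).

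In untreated Raji, a Burkitt lymphoma line of mature B cells, H3K4me3 was called in at least 2 of 3 libraries at 93% of the genes with H3K4me3 only in REH, 61.1% of those with both, 9.28% with H3K27me3 only and 16.7% with neither. The H3K27me3 libraries of Raji differed too much among themselves for the same count. They called 6.20%, 50.6% and 74.4% of the genes with H3K27me3 only in REH, and 0.529%, 89.6% and 11.8% of those with H3K4me3 only, so replicate 2 stood apart and no state was read from them.

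H3K4me3 calls made in a single library came almost all from replicate 1, the deepest. Of the genes with H3K27me3 only, 363 (16.4%) had an H3K4me3 peak in a single library, which was replicate 1 in 362, and these held a median of 0.223 times the median peak. Of the genes with neither mark 17.7% had such a peak, 1398 of 1402 in replicate 1. Such genes are not counted under both marks. The count of genes with both marks was 321 without H3K4me3 replicate 1, 437 without replicate 2 and 324 without replicate 3, against 440 with all. With a library left out, H3K4me3 had to be called in every remaining library, so this count could only fall or stay.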

How the data were processed

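The main samples were 3 H3K4me3 and 3 H3K27me3 libraries of untreated REH, and the H3K4me2, bryostatin and Raji libraries were read against them. The authors trimmed the reads with Trim Galore, aligned them to hg38 with Bowtie2, normalized coverage to RPKM and called stringent peaks with SEACR. Each library has its own peaks, and all peak ends lie on a grid of 10 bp. Versions are not given in the sources used here. The deposited signal of a peak is that coverage summed over its bases, with the maximum beside it. DESeq2 is named by the authors for their own comparisons, which were not used. No linear model across genes was run, because the files hold no signal outside called peaks.

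Peaks on chromosomes 1 to 22, X and Y were used, with starts from GENCODE release 44. Mapped reads were computed from the step between maxima. Shares were compared by exact two-sided permutation tests over libraries and signals by exact sign-flip tests. Libraries of equal replicate number were not treated as pairs in the permutation tests, and whether they were made together could not be told. A gene with neither mark is one with no call at this depth.

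The members and gene lists were chosen with earlier results of these data known. Genes named were the cell type markers, up to 3 genes of the most frequent state of each list by mean signal, the 5 genes with the longest called H3K4me3, H3K27me3 and shared length, and CD22. Some of these are not reported here. Other genes were named after their values were seen. The steps were tested on simulated peaks. Python 3.11.15, NumPy 2.4.6, SciPy 1.17.1 and matplotlib 3.10.9 were used.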

Additional observations from a re-analysis of the deposited data

Results flagged for a closer look

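Peaks on contigs other than chromosomes 1 to 22, X and Y stood outside all comparisons and were above the 3 that a count of 0 allows in 4 libraries. There were 13 in H3K4me3 replicate 1, and 381, 183 and 129 in H3K27me3 replicates 1, 2 and 3. They made up 0.110% of the peaks of the first library and 0.780%, 0.962% and 0.727% of those of the others.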

How the results depend on the processing

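Each of the 15 results was recomputed under 11 to 16 alternatives. The 6 comparisons of widths and shares and the 2 signal differences kept their direction under all alternatives run for them. Several sizes changed by over 1.5 times. The median width difference reached 4773 bp with equal numbers of peaks by total signal, 3167 bp by maximum, 2137 bp with the upper 50% and 1670 bp with peaks joined. The difference in the share of wide peaks was 71 points with equal numbers by total signal and 67.7 by maximum. The difference in genes with a peak was -17.4 points with the upper 50%, and the gene body share 22.8 with starts of 500 bp and 23.4 with only the 5′ end. The H3K4me3 signal difference ran from -0.65 (any 1 library) to -0.05 (equal number by maximum), and that of H3K27me3 from -1.03 (joined) to -0.21 (any 1 library). The body overlap ratio crossed 1, at 0.680 with the upper 50%, 0.913 and 0.867 with equal numbers, 0.798 joined and 0.460 with starts of 2500 bp. With the 50% of peaks of highest total signal in each library, the overlap ratio was 0.303 at starts and 0.545 between genes, below 1 and so reversed, and the counts were 5370 genes with H3K4me3 only, 125 with both marks and 12653 with neither. With 7509 peaks in every library, ranked by total signal, the ratio at starts was 0.391 and 173 genes had both marks. Ranked by maximum signal, the ratio was 0.337 at starts and 0.978 between genes, again reversed, and 154 genes had both. The count of both was 277 with only the gene's 5′ end as start, 254 with all 3 libraries required and 1068 with any 1 library. The cause was not tested, apart from fewer peaks or a stricter or looser rule by construction.

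Leaving out 1 library in turn gave differences of 177 to 1182 bp in median width, 38.7 to 55.3 points in the share of wide peaks, -74.9 to -69.5 points at starts, 35.4 to 39.7 in gene bodies, 33.5 to 35.7 in intergenic space and -39.7 to -31.8 in genes with a peak. The overlap ratios were 0.538 to 0.774 at starts, 0.576 to 1.30 in bodies and 1.21 to 2.21 between genes. The gene counts were 8126 to 9547 with H3K4me3 only, 1659 to 2328 with H3K27me3 only, 321 to 437 with both and 7943 to 9258 with neither, and the signal differences -0.44 to -0.18 and -0.69 to -0.48. For these a mark had to be called in every remaining library. The count with both could thus only fall or stay, and that with neither only rise or stay.

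Under the replicate block the differences were unchanged by construction at 663 bp and 45.0, -72.5, 38.0, 34.6 and -35.9 points, with an exact sign-flip p of 0.25 each, the smallest possible. Deviations of same-numbered libraries over 1611 bins of 10 kb correlated at 0.00924, -0.0239 and -0.0422, and those of other pairs at -0.07086 to 0.1015. No pairing by number was seen, but correlations between unlike marks cannot show that same-numbered libraries were made apart. The block changed no call. Called length followed mapped reads within each mark, but H3K4me3 replicate 2 had fewer peaks than the shallower replicate 3, and calls at matched depth were not made.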
